A study of Rattus norvegicus with 16 samples.

Results

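Drd4, Drd2 and Th were each represented by 1 probe set on a rat expression array, so they are 3 of the 8740 probe sets that are not controls, and 3 of 4736 named genes. They were taken by gene symbol alone (Drd4 from M84009_at, Drd2 from X56065_s_at, Th from M10244_at), and all 3 passed the filter on dim signals in the retina. Total RNA of retina and pineal gland was hybridised to 16 arrays, 12 of retina and 4 of pineal. Each of the conditions ZT6, ZT12, CT6 and CT12 was measured on 3 retina arrays and on 1 pineal array. ZT (Zeitgeber time) conventionally refers to a light-dark cycle and CT (circadian time) to the animal's own clock in constant conditions, and the labels give the hour and the scale but no strain, age, genotype or lighting. Nothing in the labels ties the numbered retina arrays to separate animals, and the p-values here cover only the variation among these samples, part of which may be technical.

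Dopamine is made from tyrosine in amacrine cells of the retina, where tyrosine hydroxylase (Th) catalyses the rate-limiting step. The receptors Drd4 and Drd2 belong to the D2-like family, which couples to inhibitory G proteins and lowers cyclic AMP. Drd4 is known from photoreceptors and, in rodents, from the pineal gland, where sympathetic nerve fibres that contain Th release noradrenaline at night and raise cyclic AMP in pinealocytes. Drd2 is known as the autoreceptor of dopaminergic amacrine cells.

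The Drd4 signal was higher at hour 12 than at hour 6 in both tissues, with the exception of 1 retina array. In the pineal it was 4.96-fold higher under ZT and 8.86-fold higher under CT, from 1 array per condition. In the retina it was 2.16-fold higher at ZT12 than at ZT6 with all arrays, which did not pass the test (adjusted p = 0.81 in limma). Once that array, CT12 array 1, was left out, it was 2.09-fold higher and passed (adjusted p = 0.0223 in limma). The Drd4 difference between CT12 and CT6 did not pass with or without that array. Drd2 and Th did not pass the test in any retina comparison of hour or regime, with or without that array. Both were lower in pineal than in retina, as were 36.4% of the probe sets tested.

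The promoter sequences of the 3 genes are shown because D2-like receptors signal through cyclic AMP, a pathway known to act on genes through the element TGACGTCA. All 3 genes matched an entry of RefSeq's promoter table (assembly GRCr8), which spans 250 bases before to 50 bases after the annotated start. Capitals mark 3 searched motifs on either strand: the full cyclic AMP response element TGACGTCA, its core TGACG, and the GC box GGGCGG bound by Sp1. The Drd4 promoter lies at chr1:205825687-205825986 (plus strand), that of Drd2 at chr8:58605153-58605452 (plus strand) and that of Th at chr1:207508169-207508468 (minus strand).
Drd4: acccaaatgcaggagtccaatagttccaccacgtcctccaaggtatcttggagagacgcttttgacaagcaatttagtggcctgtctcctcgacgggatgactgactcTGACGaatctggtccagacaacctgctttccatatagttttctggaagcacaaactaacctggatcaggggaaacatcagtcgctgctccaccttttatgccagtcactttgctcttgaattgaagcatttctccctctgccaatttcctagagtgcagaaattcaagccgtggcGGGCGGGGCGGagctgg
Drd2: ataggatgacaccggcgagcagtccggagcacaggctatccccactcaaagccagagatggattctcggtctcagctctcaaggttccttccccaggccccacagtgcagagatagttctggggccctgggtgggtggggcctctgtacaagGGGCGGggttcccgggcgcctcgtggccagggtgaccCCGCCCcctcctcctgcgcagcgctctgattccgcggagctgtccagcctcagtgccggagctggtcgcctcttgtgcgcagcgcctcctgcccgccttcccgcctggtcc
Th: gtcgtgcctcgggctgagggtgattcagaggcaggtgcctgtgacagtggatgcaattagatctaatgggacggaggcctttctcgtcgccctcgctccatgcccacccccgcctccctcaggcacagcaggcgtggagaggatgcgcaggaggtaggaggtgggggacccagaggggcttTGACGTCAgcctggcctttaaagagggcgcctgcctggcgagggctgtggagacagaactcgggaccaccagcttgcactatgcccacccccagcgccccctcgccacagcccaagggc
The full element TGACGTCA occurred in the Th window only, 69 bases before the start, and in 1.83% of all 33469 promoter windows. The core TGACG occurred in Drd4, 142 bases before the start, and inside the full element of Th, whose second core overlaps the first on the other strand. It was absent from the Drd2 window and present in 21.2% of windows. The GC box occurred 2 times in Drd4, in overlapping matches that begin at positions 34 and 39, counting the start base as 1. It occurred 2 times in Drd2, 98 and 61 bases before the start, against 33.1% of windows with at least 1. None of the 3 windows held TAATCC, the core bound by Crx and Otx factors (7.17% of windows), the E-box CACGTG (6.42%) or AGGTCA, the core bound by ROR and Nr4a receptors (16.2%). A match is a description of the letters and no evidence of binding.

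The tissues matched their labels by marker genes. The melatonin synthesis gene Asmt lay between 11360 and 14980 intensity units on the 4 pineal arrays and at a median of 498.5 on the retina arrays, and Tph1 between 18770 and 27410 against a median of 59.27. Per the labels, pineal samples carry a retina source name and the pineal array titled ZT 12 also carries an hour of 6 in its description, so the title was used. CT12 array 1 of the retina stood apart. Its median Spearman correlation with the other retina arrays over all probe sets was 0.837, against 0.944 to 0.962 for the rest, and the summed intensity of 6 rod genes was 28607, against 290978 to 465226. Sums for 6 ganglion cell genes (6786 against 46403 to 76546) and 11 amacrine genes (18441 against 53731 to 82474) were also below every other retina array, and the sum of 12 lens genes was above every other (3836226 against 53200 to 2500246). In these bulk samples, fewer cells of a type and less RNA per cell cannot be told apart. CT12 array 2 leaned the same way to a smaller degree, with a mean of the rod genes at -0.58 log2 units from the median of the other 11 arrays. With array 1 left out, the lowest rod, ganglion cell and amacrine sums and the highest lens sum still belonged to CT12. Results that rest on array 1 are given with it and without it, and CT12 values without it still rest on array 2.

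Deposited Drd4 intensities in the retina were 9922, 13668 and 13973 at ZT6 and 27482, 25369 and 25472 at ZT12. Under CT they were 18918, 21342 and 16456 at CT6 and 2024, 31500 and 41372 at CT12, where the lowest value belongs to array 1. The 3 ZT12 arrays lay above all 3 ZT6 arrays, and CT12 arrays 2 and 3 lay above all 3 CT6 arrays. CT12 array 1 lay below every other retina array. On the log2 scale of the normalized intensity plus 16, the group means were 13.60 ± 0.29 at ZT6, 14.71 ± 0.04 at ZT12 and 14.19 ± 0.19 at CT6 (SD, n = 3). At CT12 the mean was 13.84 ± 2.23 (SD, n = 3), or 15.11 ± 0.38 (SD, n = 2) without array 1.

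**Figure D1:**
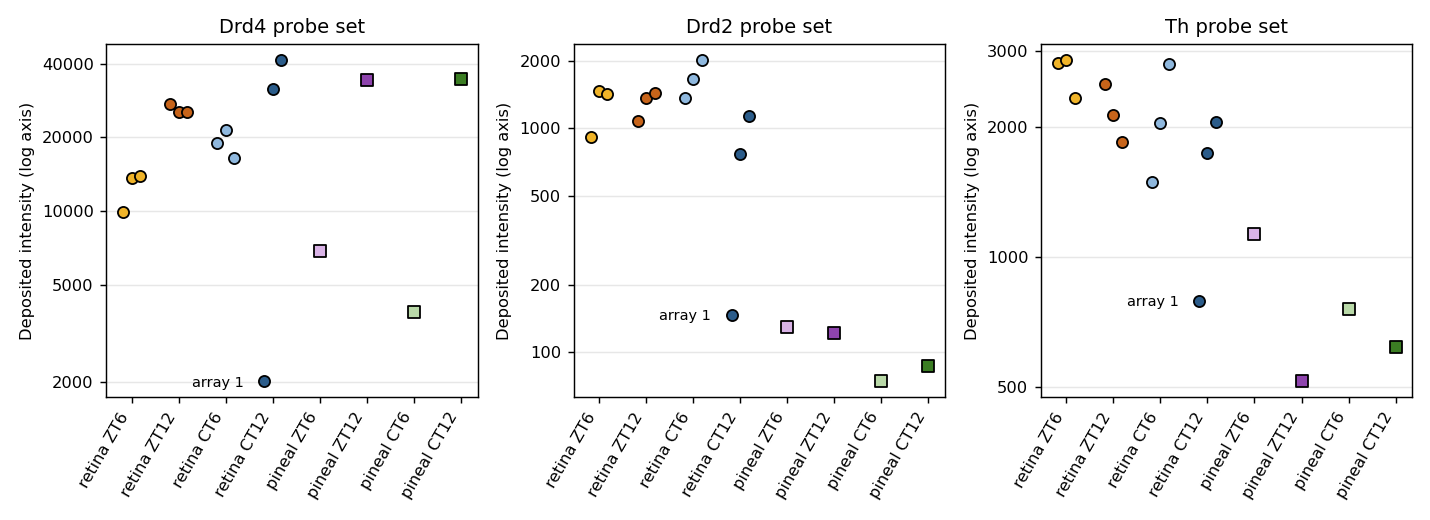
Deposited intensity of the Drd4, Drd2 and Th probe sets on each array, on log axes that differ between panels, with circles for retina arrays (3 per condition) and squares for pineal arrays (1 per condition). Drd4 at hour 12 lies above hour 6 in each tissue and regime except for retina CT12 array 1 at 2024 units, and Drd2 in pineal lies between 74 and 129 units.

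The ZT12 against ZT6 comparison asks whether the hour changed the level under Zeitgeber time. With all 12 retina arrays in the limma fit, the Drd4 difference was 1.11 ± 0.81 log2 units (SE, 95% interval -0.68 to 2.90, adjusted p = 0.81). Without CT12 array 1, which enters this comparison through the shared spread, the normalization and the filter, it was 1.07 ± 0.18 (adjusted p = 0.0223 in limma). In the 6 arrays alone it was 1.03 ± 0.16 (adjusted p = 0.0375 in limma), where 1.66% of probe sets passed. The size of the difference thus moved little and its error moved with the array. Of the probe sets tested, 0.286% passed with all arrays and 1.51% without CT12 array 1, and 10.3% had ZT12 above ZT6 on every array.

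Under CT, Drd4 differed between CT12 and CT6 by -0.36 ± 0.81 log2 units with all arrays (adjusted p = 0.769 in limma) and by 0.87 ± 0.20 without CT12 array 1 (95% interval 0.42 to 1.31, adjusted p = 0.0902 in limma). The direction therefore turned with 1 array, and neither value passed the threshold of 0.05. The share of probe sets that passed was 0.0381% with all arrays and 0.133% without it, and 13.1% lay higher at CT12 than at CT6 on every remaining array. Over both regimes, hour 12 against hour 6 gave 0.38 ± 0.57 with all arrays (adjusted p = 0.7 in limma) and 0.97 ± 0.13 without CT12 array 1, a 1.95-fold difference (adjusted p = 0.0103 in limma), where 0.21% and 1.3% of probe sets passed. The time effect under CT minus that under ZT was -1.47 ± 1.15 (adjusted p = 0.489 in limma) and -0.20 ± 0.27 (95% interval -0.80 to 0.40, adjusted p = 0.749) without CT12 array 1. For this difference 0.0191% of probe sets passed in either fit.

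Drd4 in CT samples was compared with ZT samples at the same hour. The 3 CT6 arrays lay above the 3 ZT6 arrays, as did 7.95% of probe sets, and the difference was 0.60 ± 0.81 log2 units with all arrays (adjusted p = 1.0 in limma) and 0.58 ± 0.18 without CT12 array 1 (adjusted p = 0.351 in limma). CT12 arrays 2 and 3 lay above all ZT12 arrays, as did 16.3% of probe sets, by 0.38 ± 0.20 (adjusted p = 0.336 in limma), whereas with array 1 the difference was -0.87 ± 0.81 (adjusted p = 0.467). In both hours combined the difference was -0.14 ± 0.57 with all arrays (adjusted p = 0.913 in limma) and 0.48 ± 0.13 without CT12 array 1 (adjusted p = 0.202 in limma). The share of probe sets that passed was 0.0% for CT6 against ZT6, 0.61% for CT12 against ZT12 and 0.0% for both hours combined, each the same with and without the array.

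**Figure D2:**
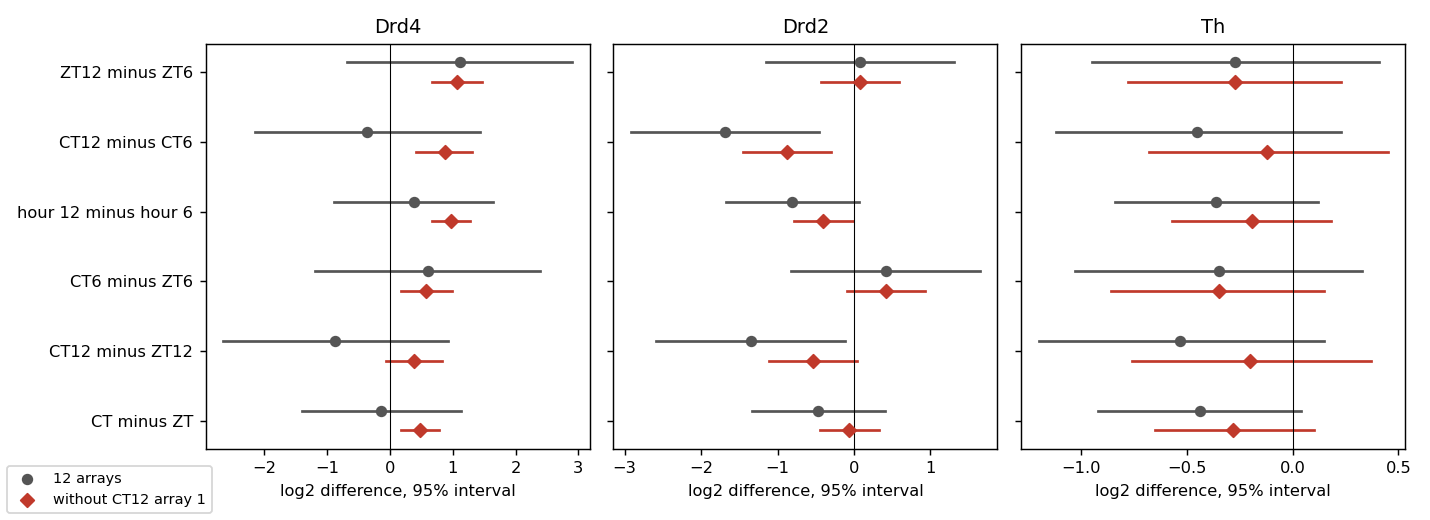
Differences between retina groups for Drd4, Drd2 and Th in log2 units (horizontal axis, scale differs between panels) with 95% intervals from limma, for 6 comparisons, with all 12 arrays (grey circles) and without CT12 array 1 (red diamonds). The Drd4 interval for ZT12 against ZT6 runs from -0.68 to 2.90 with all arrays and from 0.67 to 1.47 without that array.

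Drd4 was also tested alone by exact permutation of its arrays. The Drd4 difference between hours within regimes was 0.38 with all 12 arrays (two-sided exact permutation p = 0.71) and 1.01 with 11 (p = 0.005, which is the smallest p that 200 arrangements allow). The difference between regimes within hours was -0.14 with 12 arrays (exact permutation p = 1.0) and 0.50 with 11 (p = 0.005). These are 4 of 24 such tests on the 3 genes, and their p-values are not adjusted over all probe sets.

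Drd4 is known from photoreceptors, and both Drd4 and the rod genes were low on CT12 array 1. A link between the low values was not tested. On that array Drd4 lay 3.09 log2 units below the median of the other 11 arrays, the mean of the 6 rod genes (Cnga1, Gnb1, Pdc, Prph2, Rom1 and Sag) lay 3.70 below it, Drd2 lay 3.05 below and Th 1.16 below. As a further measure, Drd4 was expressed relative to that rod mean on each array. The differences were -2.51, -2.21 and -1.91 at ZT6, -0.82, -1.03 and -1.06 at ZT12, -1.68, -1.49 and -1.90 at CT6, and -0.77, -0.32 and -0.33 at CT12 for arrays 1 to 3. In this measure the 6 arrays of hour 12 lay above the 6 arrays of hour 6, as they did for 4.39% of all probe sets (4.44% without CT12 array 1). The place of array 1 is not particular to Drd4: after the rod mean is subtracted, 97.3% of probe sets lay higher on it than on every hour 6 array. Without array 1 the difference between hours was 1.30 log2 units (two-sided exact permutation p = 0.005, the smallest p that 200 arrangements allow). Between regimes within hours it was 0.59 (exact permutation p = 0.005). Over 12 arrays these differences were 1.23 and 0.51. A test over 12 arrays cannot decide about Drd4, because the subtraction itself sets the place of array 1. The test over 11 arrays is not one of Drd4 alone either, because the rod genes were themselves lower at hour 12. Without array 1 the 6 rod genes differed between hours by -0.72 to -0.18 log2 units. Drd4 without the subtraction differed by 1.01. With Gnb1 left out, because it is expressed beyond rods, the hour 12 values ran from -1.41 to -0.59 and the hour 6 values from -2.83 to -1.76, again without overlap. This measure was chosen after the values of array 1 were seen.

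**Figure D3:**
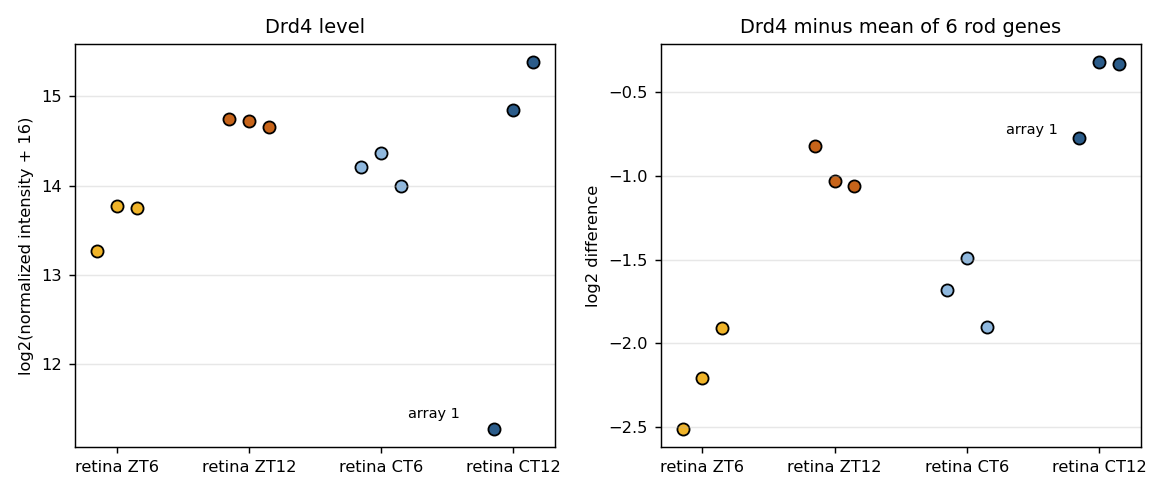
Drd4 on the 12 retina arrays as log2 of the normalized intensity plus 16 (left) and as the log2 difference from the mean of 6 rod genes on the same array (right), by condition. CT12 array 1 lies at 11.28 on the left, below all others, and at -0.77 on the right, where 97.3% of all probe sets on that array, like Drd4, lie above every hour 6 array.

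Levels of lens genes also differed among the retina arrays. The 12 lens genes had mean log2 levels of 11.44 to 14.88 at ZT6 and 14.32 to 16.21 at ZT12, and of 11.21 to 15.31 at CT6 and 15.53 to 17.19 at CT12, so the hours overlapped under ZT and not under CT. Their median difference between hours was 1.90 log2 units with all arrays and 1.75 without CT12 array 1, against -0.05 and -0.03 over all probe sets tested, and 0 of 12 passed in limma. The part of lens RNA in the retina Drd4 difference was not tested. In the pineal the lens genes had mean log2 levels of 9.34 to 9.76. Their summed intensity there was lower at hour 12 (13859 to 15591) than at hour 6 (19261 to 19951), with a median difference of 0.16 after normalization. These pineal values do not bear on lens RNA in the retina samples. The rod genes, in which Drd4 is known, had a median difference of -0.87 with all arrays and -0.27 without CT12 array 1, and 0 of 6 passed.

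In the pineal, Drd4 intensities were 6870 at ZT6, 34163 at ZT12, 3893 at CT6 and 34627 at CT12. Both hour 12 arrays lay above both hour 6 arrays. The difference between hours was 2.31 log2 units under ZT and 3.15 under CT, on log2 of the deposited intensity plus 16, with no replicate. By the smaller of its increases in the ZT and CT pairs, Drd4 ranked 11 of 5244 probe sets, and 0.362% were at least 4-fold higher at hour 12 in both regimes. A limma fit of the 4 pineal arrays with hour and regime, which has 1 residual degree of freedom, gave 2.73 ± 0.28 (adjusted p = 0.1). In that fit 0.0% of probe sets passed.

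**Figure D4:**
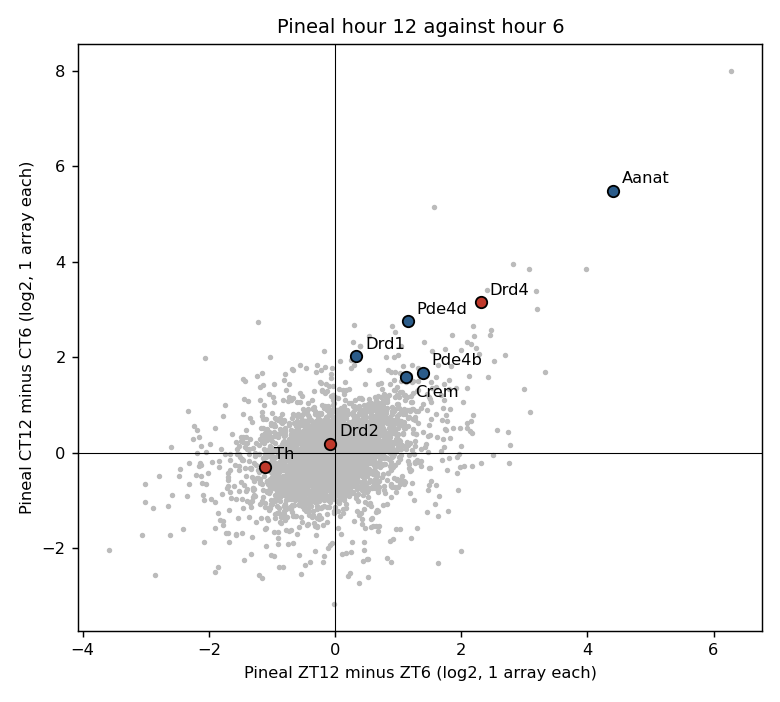
Difference between hour 12 and hour 6 in pineal under ZT (horizontal) and CT (vertical), in log2 units from 1 array per condition, for 5244 probe sets (grey), with Drd4, Drd2 and Th in red and 5 genes of the dopamine and cyclic AMP lists in blue. Drd4 lies at 2.31 and 3.15, Th at -1.11 and -0.29, and Drd2, which is below the filter in pineal, at -0.08 and 0.19.

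A fit of all 16 arrays with tissue, hour and regime set the hour effects of the tissues side by side. This model was added after the values had been seen. With 1 pineal array per condition, its error comes mostly from the retina arrays. It also takes the same regime effect in both tissues. At hour 6, however, Drd4 under CT minus ZT was -0.82 log2 units in pineal as deposited and 0.58 in retina without CT12 array 1. With all arrays the Drd4 hour effect was 2.62 ± 0.97 log2 units in pineal (adjusted p = 0.28 in limma) and 0.33 ± 0.56 in retina (adjusted p = 0.752), and the difference between these effects was 2.29 ± 1.12 (adjusted p = 0.504). Without retina CT12 array 1 the effects were 2.57 ± 0.30 in pineal (adjusted p = 0.000292 in limma), a 5.94-fold difference, and 0.94 ± 0.19 in retina (adjusted p = 0.0275). The pineal effect then exceeded that in retina by 1.63 ± 0.36 (95% interval 0.86 to 2.40, adjusted p = 0.0306 in limma). Without this array 4.46% of probe sets passed for the pineal hour effect, 1.24% for the retina effect and 2.88% for their difference, and with it 1.41%, 0.267% and 0.477%.

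Drd4 was compared between tissues at each hour. Without CT12 array 1, pineal lay below retina at hour 6 by -1.61 ± 0.25 log2 units (adjusted p = 5.68e-05 in limma), and at hour 12 the difference was 0.02 ± 0.26 (95% interval -0.53 to 0.57, adjusted p = 0.949). With all arrays the differences were -1.62 ± 0.79 at hour 6 (adjusted p = 0.0841 in limma) and 0.67 ± 0.79 at hour 12 (95% interval -1.03 to 2.36, adjusted p = 0.474). Over all conditions pineal minus retina was -0.48 ± 0.62 with all arrays (adjusted p = 0.492 in limma) and -0.82 ± 0.29 without CT12 array 1 (adjusted p = 0.0182 in limma). It was 0.17 when the arrays were scaled to a common median, and 0.12 without the pineal CT6 array. Many probe sets separated the tissues: 75.8% passed over all conditions with all arrays, 65.0% at hour 6 and 65.8% at hour 12 with them, and 72.7% and 72.9% without CT12 array 1. Ordered by deposited intensity, the retina ZT6, CT6 and ZT12 groups did not overlap one another, the pineal hour 12 arrays lay above all of these, within the range of CT12 arrays 2 and 3, and the pineal hour 6 arrays lay below all of these. The share of probe sets with this whole order was not counted, so it is only a description. Single steps were common, with CT6 above ZT6 in 7.95% of probe sets and ZT12 above ZT6 in 10.3%.

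Drd2 intensities in the retina were 918, 1472 and 1417 at ZT6, 1075, 1362 and 1440 at ZT12, 1373, 1660 and 2021 at CT6, and 146, 768 and 1131 at CT12. The ZT6 and ZT12 arrays overlapped. The 3 CT12 arrays lay below the 3 CT6 arrays, as did 15.9% of probe sets, and array 1 was the lowest of the retina. Group means were 10.27 ± 0.37, 10.35 ± 0.17, 10.68 ± 0.30 and 8.99 ± 1.45 log2 units (SD, n = 3) at ZT6, ZT12, CT6 and CT12, and 9.82 ± 0.37 (SD, n = 2) at CT12 without array 1.

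The Drd2 difference between CT12 and CT6 was -1.69 ± 0.56 log2 units with all arrays (95% interval -2.92 to -0.46, adjusted p = 0.137 in limma). Without CT12 array 1 it was -0.87 ± 0.26 (95% interval -1.45 to -0.30, adjusted p = 0.14 in limma). Both intervals for this gene alone lie below 0 and neither value passed over all probe sets. With CT12 array 3 left out instead, which leaves arrays 1 and 2, it was -2.25 ± 0.52 (adjusted p = 0.0261 in limma), in a fit where 24.9% of all probe sets passed. For ZT12 against ZT6 it was 0.08 ± 0.56 (adjusted p = 0.993), with an interval of -0.43 to 0.59 without CT12 array 1. The hours within regimes gave -0.81 (two-sided exact permutation p = 0.1) over 12 arrays and -0.39 (exact permutation p = 0.15) over 11. Relative to the rod mean they differed by 0.05 over 12 arrays (exact permutation p = 0.81) and by -0.11 over 11 (p = 0.565). CT12 lay below ZT12 by -1.35 ± 0.56 with all arrays (adjusted p = 0.173 in limma) and by -0.53 ± 0.26 without array 1 (adjusted p = 0.296), and without CT12 array 3 by -1.91 ± 0.52 (adjusted p = 0.0363 in limma), where 20.4% of all probe sets passed.

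In the pineal, Drd2 intensities were 129 at ZT6, 121 at ZT12, 74 at CT6 and 86 at CT12. All 4 lay below the lowest retina array in deposited intensity, but after normalization ZT6 and ZT12 lay above retina CT12 array 1, and all 4 lay below the other 11. Within the pineal arrays they lay between the 14.5 and 21.8 percentile of probe sets, under the filter at the 40th percentile. Pineal minus retina was -2.85 ± 0.39 log2 units over 16 arrays (adjusted p = 1.07e-05 in limma), and -3.07 ± 0.20 without CT12 array 1 (adjusted p = 5.46e-09). Of all probe sets, 36.4% passed as lower in pineal, and 29.9% had all pineal arrays below the 11 retina arrays. No detection call was used, so in pineal transcript and background cannot be told apart. The Drd2 signal was estimated as 7.21-fold lower there over 16 arrays, with an interval of -3.68 to -2.02 log2 units from limma. Where the pineal signal is background, the difference in transcript may be larger than that in signal. The pineal difference between hours was -0.08 under ZT and 0.19 under CT.

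Th intensities in the retina were 2817, 2862 and 2338 at ZT6, 2515, 2135 and 1850 at ZT12, 1495, 2046 and 2808 at CT6, and 790, 1737 and 2056 at CT12. The groups overlapped in every pair except ZT6 against CT12, where all 3 ZT6 arrays were higher, as in 17.9% of probe sets (22.3% without CT12 array 1). Means were 11.34 ± 0.15, 11.07 ± 0.25, 10.99 ± 0.47 and 10.54 ± 0.58 log2 units (SD, n = 3) at ZT6, ZT12, CT6 and CT12, and 10.87 ± 0.15 (SD, n = 2) at CT12 without array 1.

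No Th difference passed in the retina. ZT12 minus ZT6 was -0.27 ± 0.31 log2 units (95% interval -0.95 to 0.41, adjusted p = 0.91 in limma), and CT12 minus CT6 was -0.45 ± 0.31 (adjusted p = 0.316) with all arrays and -0.12 ± 0.25 (adjusted p = 0.819) without CT12 array 1. Over both regimes hour 12 minus hour 6 was -0.36 ± 0.22 (adjusted p = 0.373 in limma) and -0.19 ± 0.17 without that array, with an interval of -0.57 to 0.18. CT minus ZT was -0.44 ± 0.22 (adjusted p = 0.431 in limma; exact permutation p = 0.065) with all arrays and -0.28 ± 0.17 without CT12 array 1 (adjusted p = 0.53; exact permutation p = 0.135). Th is expressed in a sparse amacrine class. The sum of 11 amacrine genes, Th included, ranged from 74097 to 82474 at ZT6 and from 74575 to 76076 at ZT12. It ranged from 69173 to 82214 at CT6 and from 18441 to 73898 at CT12, where the lowest was 53731 without array 1. The part of the amacrine signal in the Th values was not tested.

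Th was lower in pineal than in retina. Its pineal intensities were 1130 at ZT6, 515 at ZT12, 756 at CT6 and 616 at CT12, and in these deposited values 3 of the 4 lay below every retina array while ZT6 lay above CT12 array 1. After normalization CT6 also lay above CT12 array 1, and ZT6 above CT6 array 1 of the retina as well. Pineal minus retina was -0.97 ± 0.22 log2 units, 1.96-fold lower (adjusted p = 0.000921 in limma), and -1.06 ± 0.17 without CT12 array 1 (adjusted p = 5.76e-05). In the tissue by hour fit without that array, pineal lay below retina by -0.85 ± 0.23 at hour 6 (adjusted p = 0.00473 in limma) and by -1.26 ± 0.24 at hour 12 (adjusted p = 0.000311). The pineal hour difference was -1.11 under ZT and -0.29 under CT, opposite in sign to that of Drd4, and in the 4 pineal arrays alone it was -0.70 ± 0.28 (adjusted p = 0.372 in limma). Other genes of sympathetic fibres differed in pineal between hours by -1.45 under ZT and -2.25 under CT for the peptide Npy, by -0.85 and 0.15 for the noradrenaline transporter Slc6a2, and by -0.43 and 1.70 for Dbh, which makes noradrenaline from dopamine and lay at 145.9 to 510.1 intensity units. Slc18a2, the vesicular monoamine transporter, differed by 0.45 and 0.53. The summed intensity of these 4 genes and Th was 3122 to 4892 at hour 6 and 2392 to 2523 at hour 12 in pineal.

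The other dopamine genes were taken from a list of 32 genes of synthesis, transport, breakdown, receptors and signalling, of which 27 were on the array. In the retina 17 besides Drd4, Drd2 and Th passed the filter. Of these, 0 were higher and 0 lower in each of the 7 retina comparisons in limma, both with all arrays and without CT12 array 1. Their median difference for hour 12 against hour 6 was -0.18 log2 units with all arrays and -0.08 without CT12 array 1, against -0.05 and -0.03 over all probe sets. The D1-like receptor Drd1 had values near those of Drd2: CT12 minus CT6 was -1.99 ± 0.75 (adjusted p = 0.151 in limma) and -0.81 ± 0.19 without CT12 array 1 (adjusted p = 0.0879).

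Between tissues, 8 of 18 other dopamine genes were higher in pineal and 4 lower in limma, with a median of -0.01 against 0.09 over all probe sets, of which 39.4% were higher and 36.4% lower. The higher genes included 4 of the synthesis and recycling of tetrahydrobiopterin, the cofactor of Th: Gch1, its first enzyme, was higher by 7.71 ± 0.26 log2 units, Pts by 1.15 ± 0.14, Spr by 0.58 ± 0.21 and Qdpr by 0.53 ± 0.12 (adjusted p at most 0.0223 in limma). This cofactor also serves tryptophan hydroxylase, the product of Tph1. The decarboxylase Ddc, shared by the dopamine and serotonin pathways, was under the filter in retina with a median of 62.99 and lay between 10150 and 17750 in pineal; it was named for its role after its values were seen. Of the enzymes that break dopamine down, Maob was higher by 4.55 ± 0.15 and Maoa lower by -0.90 ± 0.12 (adjusted p = 6.33e-12 and 1.06e-05 in limma). The nuclear receptor Nr4a2 was higher by 2.13 ± 0.40, Drd5 by 0.56 ± 0.14 and Ywhaz, an adaptor protein that binds Th, by 0.72 ± 0.20. The lower genes were the inhibitory G protein subunits Gnai1 (-1.36 ± 0.26) and Gnai2 (-0.81 ± 0.15), Maoa, and the ganglion cell gene Sncg (-5.96 ± 0.57). The transporter Slc6a3 (0.07 ± 0.27) and the receptors Drd3 (-0.08 ± 0.14) and Drd1 (-0.79 ± 0.61) did not pass, nor did the G protein subunit Gnao1 (-0.84 ± 0.45) and the transcription factor Pitx3 (-0.83 ± 0.38).

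**Figure D5:**
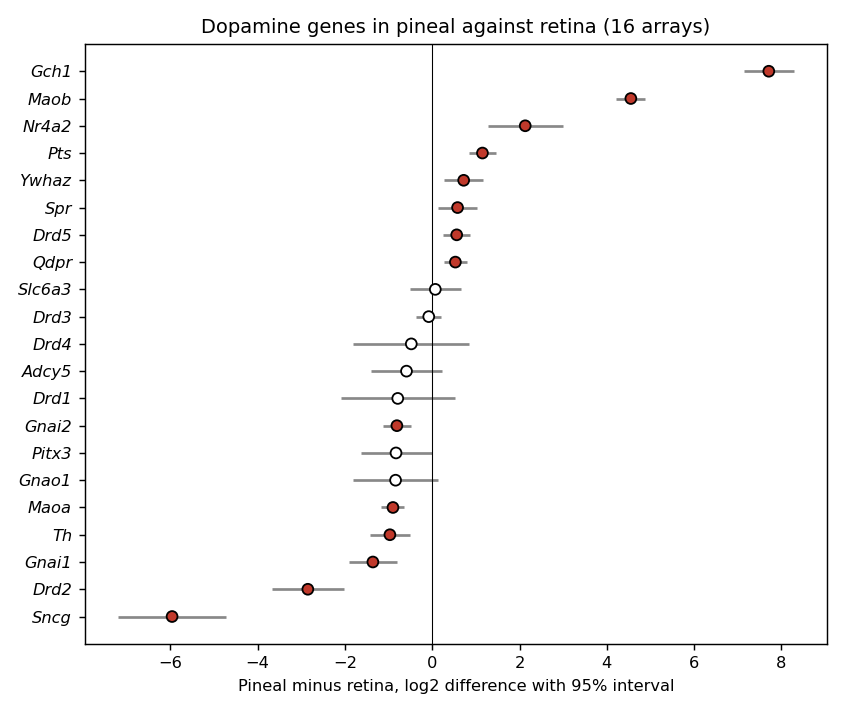
Pineal minus retina difference in log2 units (horizontal, 95% interval from limma over 16 arrays) for the 21 dopamine genes that passed the filter, filled where the adjusted p was under 0.05. Gch1 lies at 7.71, Th at -0.97, Drd2 at -2.85 and Drd4 at -0.48 with an interval that spans 0.

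Cyclic AMP is the second messenger that D2-like receptors lower, and 19 of 20 listed genes of this pathway in photoreceptors and pinealocytes were on the array. In the retina 16 passed the filter and 0 were higher or lower in each of the 7 comparisons in limma, with or without CT12 array 1. Their median for hour 12 against hour 6 was -0.18 with all arrays and -0.11 without it. In pineal, without CT12 array 1, 4 of 18 were higher at hour 12 in limma and 0 lower, with a median of 0.15 against -0.03 over all probe sets, of which 2.35% were higher. These were Aanat, the enzyme that sets melatonin output (4.40 ± 0.51), the phosphodiesterases Pde4d (1.86 ± 0.44) and Pde4b (1.65 ± 0.26), and Crem, whose product includes a cyclic AMP induced repressor (1.28 ± 0.17). Another Crem probe set, not used for the list, differed by 2.42 under ZT and 3.42 under CT between single pineal arrays. With all 16 arrays Aanat fell under the filter and was not tested. Of the 17 tested there, only Crem passed (1.27 ± 0.25, adjusted p = 0.0235 in limma), and Pde4b had 1.69 ± 0.82 (adjusted p = 0.555). Of the other dopamine genes, 1 of 18 passed for the pineal hour without CT12 array 1, Adcy5, an adenylyl cyclase (-1.57 ± 0.41, adjusted p = 0.0457 in limma), a share near the 4.46% of all probe sets, and 0 passed with all arrays.

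Between tissues, 8 of the 17 cyclic AMP genes tested were higher in pineal and 4 lower in limma, with a median of 0.0 against 0.09 over all probe sets, so these shares are near the 39.4% and 36.4% of all probe sets. The largest differences were those of the adenylyl cyclase Adcy2 (3.40 ± 0.21) and the kinase regulatory subunit Prkar2b (2.99 ± 0.26), and on the lower side the transcription factor Creb1 (-2.49 ± 0.18) and Adcy6 (-2.22 ± 0.29). The phosphodiesterases Pde4b and Pde4d were higher by 2.41 ± 0.56 and 1.32 ± 0.41, the G protein subunit Gnb1 by 2.01 ± 0.26, Adcy8 by 1.15 ± 0.31, and the kinase subunits Prkacb by 1.22 ± 0.12 and Prkar2a by 0.64 ± 0.14. The kinase subunits Prkar1a (-1.30 ± 0.13) and Prkaca (-0.38 ± 0.15) were lower. Gnas, the stimulatory G protein subunit, did not pass (0.00 ± 0.12), nor did phosducin, Pdc (-0.21 ± 0.49).

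Genes with retina profiles most like those of the 3 were ranked by the lower of the Pearson correlations over 12 arrays and over the 11 without CT12 array 1, among 4385 probe sets with 1 gene symbol. The arrays share conditions, and CT12 array 1 sets much of the correlation over 12, so the values are descriptions. For Drd4 they were Wdr31 (0.988 and 0.984), the orphan nuclear receptor Rorb (0.986 and 0.959), the phosphatase Dusp1 (0.916 and 0.952), the nuclear receptor Nr4a1 (0.911 and 0.874) and Pnpla3 (0.962 and 0.869). The most opposite were Ap4s1 (-0.898 and -0.898), Csrp2 (-0.937 and -0.805) and Apex1 (-0.844 and -0.804). In the pineal, hour 12 minus hour 6 was 3.19 under ZT and 3.39 under CT for Dusp1, and 3.21 and 3.01 for the Nr4a1 probe set named here, while a second Nr4a1 probe set had 0.99 and 0.37. For Rorb it was 0.95 and 2.53, for Pnpla3 0.98 and -0.56, and for Wdr31 0.34 and -1.21.

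For Drd2 the most alike were Drd1 (0.984 and 0.946), the glutamate receptor subunit Gria2 (0.990 and 0.938), Tmeff1 (0.989 and 0.938), Ogt (0.982 and 0.920) and Lipa (0.987 and 0.917). The most opposite were Alcam (-0.941 and -0.906), Timp1 (-0.891 and -0.917) and Fcgrt (-0.891 and -0.915). For Th they were Pex11a (0.966 and 0.917), Mfsd12 (0.936 and 0.909), Or2z2 (0.905 and 0.884), Nup107 (0.870 and 0.858) and the synaptic vesicle gene Syt4 (0.866 and 0.852). The most opposite were Lamb2 (-0.897 and -0.844), Rbbp7 (-0.932 and -0.830) and Ranbp17 (-0.841 and -0.828). The 3 genes were not alike among themselves once CT12 array 1 was left out. Drd4 and Drd2 correlated at 0.718 over 12 arrays and -0.21 over 11, Drd4 and Th at 0.466 and -0.489, and Drd2 and Th at 0.763 and 0.245.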

How the data were processed

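The deposited intensity values, linear and 1 per probe set and array, were used as the authors gave them. How probes were summarized, background corrected and scaled is not given in the sources used here. Controls (59 of 8799 probe sets) were left out. Gene names come from the platform's annotation, in which 7006 of the 8740 others carry 1 symbol, 308 several and 1426 none. Median intensities were 671.3 to 858.4 in retina and 531.6 to 576.3 in pineal. The 12 retina arrays, or all 16 for tissue comparisons, were quantile normalized and taken as log2 of the normalized intensity plus 16. Single pineal arrays were compared as deposited. The 5244 probe sets with a mean at or above the 40th percentile were kept.

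Groups followed the titles. Retina groups were fitted together, and tissue with condition over 16 arrays, in limma 3.58.1 (R 4.3.3; lmFit and eBayes, two-sided). The Benjamini-Hochberg adjustment ran over all 5244, with a threshold of 0.05, and errors of differences are standard errors. Single genes were tested by exact permutation of arrays within strata (Python 3.11.15). Lists used the brightest probe set per gene. The procedure was tested on simulated data. Precision is limited by the number of arrays.

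The members, the gene lists and the rules for named genes were chosen with earlier results of these data known. The rule named the list genes that passed, up to 8 others of each list by level, and the 5 most like and 3 most opposite genes. Title numbers were not said to pair arrays. Deviations of same-numbered arrays from their group means correlated between -0.413 and 0.414 in 18 pairs, 5 of them above 0.1, so the numbers were not taken to pair arrays. Alternatives were offsets of 1 and 64, other scalings, other filters, a trended robust prior, array weights, a block, the compared arrays alone, the arrays numbered 3 left out (their source name differs from that of the others) and each array left out in turn. The tissue by hour fit, the pineal arrays alone and the values relative to rod genes were chosen after seeing the data.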

Additional observations from a re-analysis of the deposited data

Results flagged for a closer look

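Retina CT12 array 1 lay far below the other arrays for Drd4 and Drd2. Among the 6 retina arrays of hour 12, its gap to the nearest other array was 0.823 of the whole range for Drd4 and 0.703 for Drd2. Among the 6 CT arrays the gap was 0.663 of the range for Drd4. The critical value of Dixon's test for 6 arrays is 0.625, and 15 groups were tested, of which chance passes about 1 in 20. The rod, ganglion cell and amacrine sums were also lowest on that array and the lens sum highest, and their part in these values was not tested. The difference in the Drd4 hour effect between the tissues, 1.63 log2 units higher in pineal without that array, passed in limma. The error of that fit comes mostly from the retina arrays, as pineal had 1 array per condition.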

How the results depend on the processing

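Over the fits that each left out 1 array, Drd4 ranged from 0.96 to 1.21 log2 units for ZT12 against ZT6, -1.14 to 0.87 for CT12 against CT6, -0.01 to 0.97 for the hour, -1.65 to 0.38 for CT12 against ZT12, -0.52 to 0.48 for CT against ZT and -1.0 to 0.12 for pineal against retina. Drd2 ranged from -2.25 to -0.87 for CT12 against CT6, -1.91 to -0.53 for CT12 against ZT12 and -0.13 to 0.20 for ZT12 against ZT6, and Th from -0.41 to 0.15 for the difference of time effects. In the tissue by hour fit the ranges for Drd4 were 2.34 to 2.90 for the pineal hour, 0.34 to 0.94 for the retina hour, 1.63 to 2.56 for their difference and -1.90 to -1.33 for the tissues at hour 6. They were -0.07 to 0.15 for the Drd2 pineal hour. For Th they were -0.61 to 0.11 for the difference of hour effects, -1.45 to -0.73 for the tissues at hour 12 and -0.90 to -0.78 at hour 6, where the call was lost without the pineal ZT12 array (-0.73) at hour 12 and without the pineal ZT6 (-0.90) or CT6 array (-0.78) at hour 6. Array weights, whose estimation stopped before its tolerance, gave Drd4 1.09 for ZT12 against ZT6, 0.84 for the hour and 0.59 for CT12 against CT6, all past the threshold, and 0.39 for CT against ZT and 0.14 for CT12 against ZT12, which turned sign and did not pass. They gave Drd2 -1.11, -0.78, -0.53 and -1.16 for CT12 against CT6, CT12 against ZT12, the hour and the difference of time effects, all past it, and Th 0.05 for the last. In the compared arrays alone Drd4 passed for ZT12 against ZT6 (1.03). Without all arrays numbered 3 its hour difference was -0.0016, and at a common median its tissue difference was 0.17. In the permutations, Drd4 gave 1.01 without CT12 array 1, and 1.23 and 1.30 relative to the rod genes, for the hour, and 0.50, 0.51 and 0.59 for the regime. Values relative to the rod genes turned sign without passing for Drd2 (0.05 for the hour, 0.18 and 0.03 for the regime) and Th (0.49 and 0.09 for the hour, 0.21 for the regime). With a replicate block made of the title numbers, Drd4 had 1.11 ± 0.75 for ZT12 against ZT6 (adjusted p = 0.782 in limma), and no call of the 3 genes changed. The calls of pineal against retina held in all 12 alternative settings for Th and in the 11 in which Drd2 was tested. Over all settings the number of probe sets that passed ran from 0 to 279 for ZT12 against ZT6 (15 as reported), 0 to 2524 for CT12 against CT6 (2), 0 to 1432 for the hour (11), 0 to 2568 for CT12 against ZT12 (32), 0 to 1031 for CT against ZT (0), 0 to 3 for CT6 against ZT6 (0), 1 to 1370 for the difference of time effects (1) and 2765 to 5338 for the tissues (3977), and in the tissue by hour fit 42 to 234 for the pineal hour (74), 0 to 65 for the retina hour (14) and 25 to 151 for their difference (25). In the retina fit the highest counts came from array weights. With the replicate block 11, 7, 8 and 2 passed for ZT12 against ZT6, the hour, CT12 against ZT12 and the difference of time effects. The causes were not tested. With 3 arrays a group, or 1 in pineal, small differences were not detectable.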
